A study of Homo sapiens with 15 samples.

Results

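The S100 proteins described here were followed at the RNA level in HaCaT cells, an immortalized line of human keratinocytes. They are S100A2, S100A4, S100A6, S100A7, S100A8, S100A9, S100A10, S100A11, S100A14 and S100A16, which are 10 of the 18179 genes listed in the gene tables. They were taken by symbol and not by a cutoff on their values, but earlier results of these data were known when they were chosen. Each of the following groups held 3 libraries: cells given Li-doped Ag2S NPs at 320 μg/mL, Ag2S NPs at 320 μg/mL, Li-doped Ag2S NPs at 160 μg/mL or Ag2S NPs at 160 μg/mL for 24 h, and untreated cells (control). Ag2S NPs are silver sulfide nanoparticles that emit near-infrared light, and the Li-doped ones carry lithium as well. All groups are one cell line, and since no source says that the libraries came from separate cultures, p-values measure the spread between these libraries only. Expression is given as FPKM, the fragments of a gene per length of transcript and per library total, so levels can be compared between genes. Of the 10 members, 9 had a mean FPKM of at least 1 and were tested on log2(FPKM + 0.1) with limma, and S100A11 was not tested.

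S100 proteins are small calcium-binding proteins with EF-hand motifs that mostly work as dimers. Calcium binding exposes a surface with which they hold partner proteins such as annexins, and several are also released and act as alarmins on receptors such as RAGE (AGER) and TLR4. In epidermis, S100A7 (psoriasin), S100A8 and S100A9 are the antimicrobial and inflammatory members that are induced in wounded and psoriatic skin, and S100A8 and S100A9 pair to form calprotectin, which withholds zinc and manganese from microbes. The other members studied here are more constitutive proteins of the keratinocyte or of motile cells, and most S100 genes lie together on chromosome 1 beside the genes of the cornified envelope.

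In GENCODE 29 on GRCh38 all 10 members lie on chromosome 1, 9 of them on the minus strand, and S100A9 on the plus strand. A group of 8 fills a stretch of 259 kb from S100A9 (chr1:153357854-153361027) over S100A8 (chr1:153390032-153391188), S100A7 (chr1:153457744-153460701), S100A6 (chr1:153534599-153536244), S100A4 (chr1:153543613-153550136), S100A2 (chr1:153561108-153567890) and S100A16 (chr1:153606886-153613145) to S100A14 (chr1:153614255-153616986). S100A10 (chr1:151982915-151994390) and S100A11 (chr1:152032506-152047907) lie farther off, so that the 10 genes span 1634 kb. S100A3 lies within S100A4 on the same strand, S100A6 overlaps the antisense gene BX470102.1 and S100A11 overlaps the antisense gene AL450992.1. Strand cannot tell the reads of S100A3 and S100A4 apart. Whether strand was used in the counting is not given in the sources used here, so it is unknown whether it separated the reads of the antisense pairs. S100A7 has near-identical relatives, among which S100A7A was listed at 0.02 to 0.88 FPKM in all libraries, and its values depend on how shared reads were assigned.

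The 100 bases before a transcription start are shown for 5 members whose values the results turn on, namely the 4 that were lower with Li-doped Ag2S NPs at 160 μg/mL and S100A2, which was higher. They are read 5′ to 3′ on the gene's strand, from RefSeq on GRCh38.p14, with each TATAAA (the core of a TATA box) and each TGANTCA (the AP-1 motif) in capitals, both searched on both strands, and no match overlapped another.
S100A7, chr1:153460652-153460751, minus strand: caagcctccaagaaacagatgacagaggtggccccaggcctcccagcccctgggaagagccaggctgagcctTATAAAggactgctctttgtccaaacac
S100A8, chr1:153391074-153391173, minus strand: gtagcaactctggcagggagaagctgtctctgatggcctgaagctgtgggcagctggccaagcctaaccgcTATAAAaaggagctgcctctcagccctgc
S100A9, chr1:153357754-153357853, plus strand: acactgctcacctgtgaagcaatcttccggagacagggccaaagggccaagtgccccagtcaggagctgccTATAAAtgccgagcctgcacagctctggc
S100A4, chr1:153545807-153545906, minus strand: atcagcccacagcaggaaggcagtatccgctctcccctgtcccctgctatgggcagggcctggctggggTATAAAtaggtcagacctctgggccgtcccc
S100A2, chr1:153565845-153565944, minus strand: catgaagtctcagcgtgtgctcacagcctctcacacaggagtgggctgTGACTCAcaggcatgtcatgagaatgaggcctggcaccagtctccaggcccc
RefSeq gave 14 such windows for the 10 members, 3 of them for S100A8. TATAAA began 28 bases before the start of S100A7, 29 before that of S100A9 and 1 of the 3 of S100A8, and 31 before that of S100A4. No other window of the 14 held it. The main S100A8 transcript by FPKM, ENST00000368733, begins at 153391188 in GENCODE 29. The window before that start held no TATAAA, and the window shown lies before 153391073. For S100A4 the main coding transcript, ENST00000368715, begins at 153545063, and the window shown lies before 153545806. Which starts these cells used was not tested. Of 35116 promoter windows, 2.17% had TATAAA on the gene's strand beginning 35 to 25 bases before the start, and 4.99% had it anywhere on either strand. TGANTCA was found in 1 of the 14 windows, 52 bases before the start of S100A2, against 2.75% of all windows. A match is a stretch of letters and shows no binding, and the windows were read after the values were known.

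The libraries were those of keratinocytes by their markers, since all 10 keratinocyte markers (among them KRT5, KRT14 and TP63) had a mean of at least 1 FPKM in each group. Their sum was 12329 to 31861 FPKM in libraries of treated cells, against 9474 to 9869 FPKM in control. Not every marker rose. With Li-doped Ag2S NPs at 160 μg/mL 7 of the 10 were higher than control at an adjusted p under 0.05 in limma, against 22.6% of all genes. The 2 that were lower, against 40.6%, were KRT5 (2880 to 3591 FPKM, against 4033 to 4225 in control) and DSG3 (112 to 123 FPKM, against 159 to 168). Neutrophils and monocytes carry much S100A8 and S100A9, and of 10 myeloid markers 3 were listed at both doses, with a summed level of 0.8 to 2.44 FPKM in every library, CD14 being the only one to reach a mean of 1 FPKM in any group. The fibroblast markers, 6 of 7 listed, summed to 0.71 to 3.94 FPKM with Li-doped Ag2S NPs at 320 μg/mL, 0.65 to 1.46 with Ag2S NPs at 320 μg/mL, 0.32 to 0.65 with Li-doped Ag2S NPs at 160 μg/mL and 3.82 to 4.97 with Ag2S NPs at 160 μg/mL, against 10.7 to 15.04 FPKM in control. Endothelial markers, 3 of 4 listed, summed to 0.07 to 0.81 FPKM in treated cells, against 3.36 to 4.01 FPKM in control. The part of these genes in the S100 values was not tested. Summed over all genes a library held 582451 to 698579 FPKM, the number of reads behind it is unknown, and replicate 15 of Li-doped Ag2S NPs at 320 μg/mL had the highest sum and stood apart from replicates 13 and 14 in its distance from control (a median of 0.553 on the log2 scale, against 0.403 and 0.37).

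In control cells the members covered a wide range of levels. S100A6 was the most abundant with 1176 ± 30.3 FPKM (SD, n = 3), followed by S100A14 with 918 ± 22.7, S100A2 with 746 ± 3.82, S100A10 with 687 ± 23.1 and S100A16 with 474 ± 4.72 FPKM. S100A4 had 104 ± 0.79 FPKM, S100A9 58.8 ± 2.74, S100A7 55.8 ± 0.854 and S100A8 36.3 ± 2.74 FPKM. Of the neighbours in this order only S100A9 and S100A7 overlapped between libraries. Together the 10 members made up 1.02% to 1.09% of the summed FPKM of a library with Li-doped Ag2S NPs at 320 μg/mL, 0.914% to 0.981% with Ag2S NPs at 320 μg/mL, 0.939% to 1.04% with Li-doped Ag2S NPs at 160 μg/mL and 0.825% to 0.966% with Ag2S NPs at 160 μg/mL, against 0.707% to 0.724% in control. In all 12 libraries of treated cells the members thus held a larger share of the summed FPKM than in any control library. This sum leaves out the S100A11 mRNA, whose coding transcript is not listed, and the S100 genes outside the 10, such as S100A13. The order also changed, since S100A2 was the most abundant member with Li-doped Ag2S NPs at 160 μg/mL, with no overlap with S100A6, the next. In the other treated groups the most abundant member (S100A6 with Li-doped Ag2S NPs and S100A2 with Ag2S NPs at 320 μg/mL, and S100A14 with Ag2S NPs at 160 μg/mL) overlapped with the next.

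**Figure D1:**
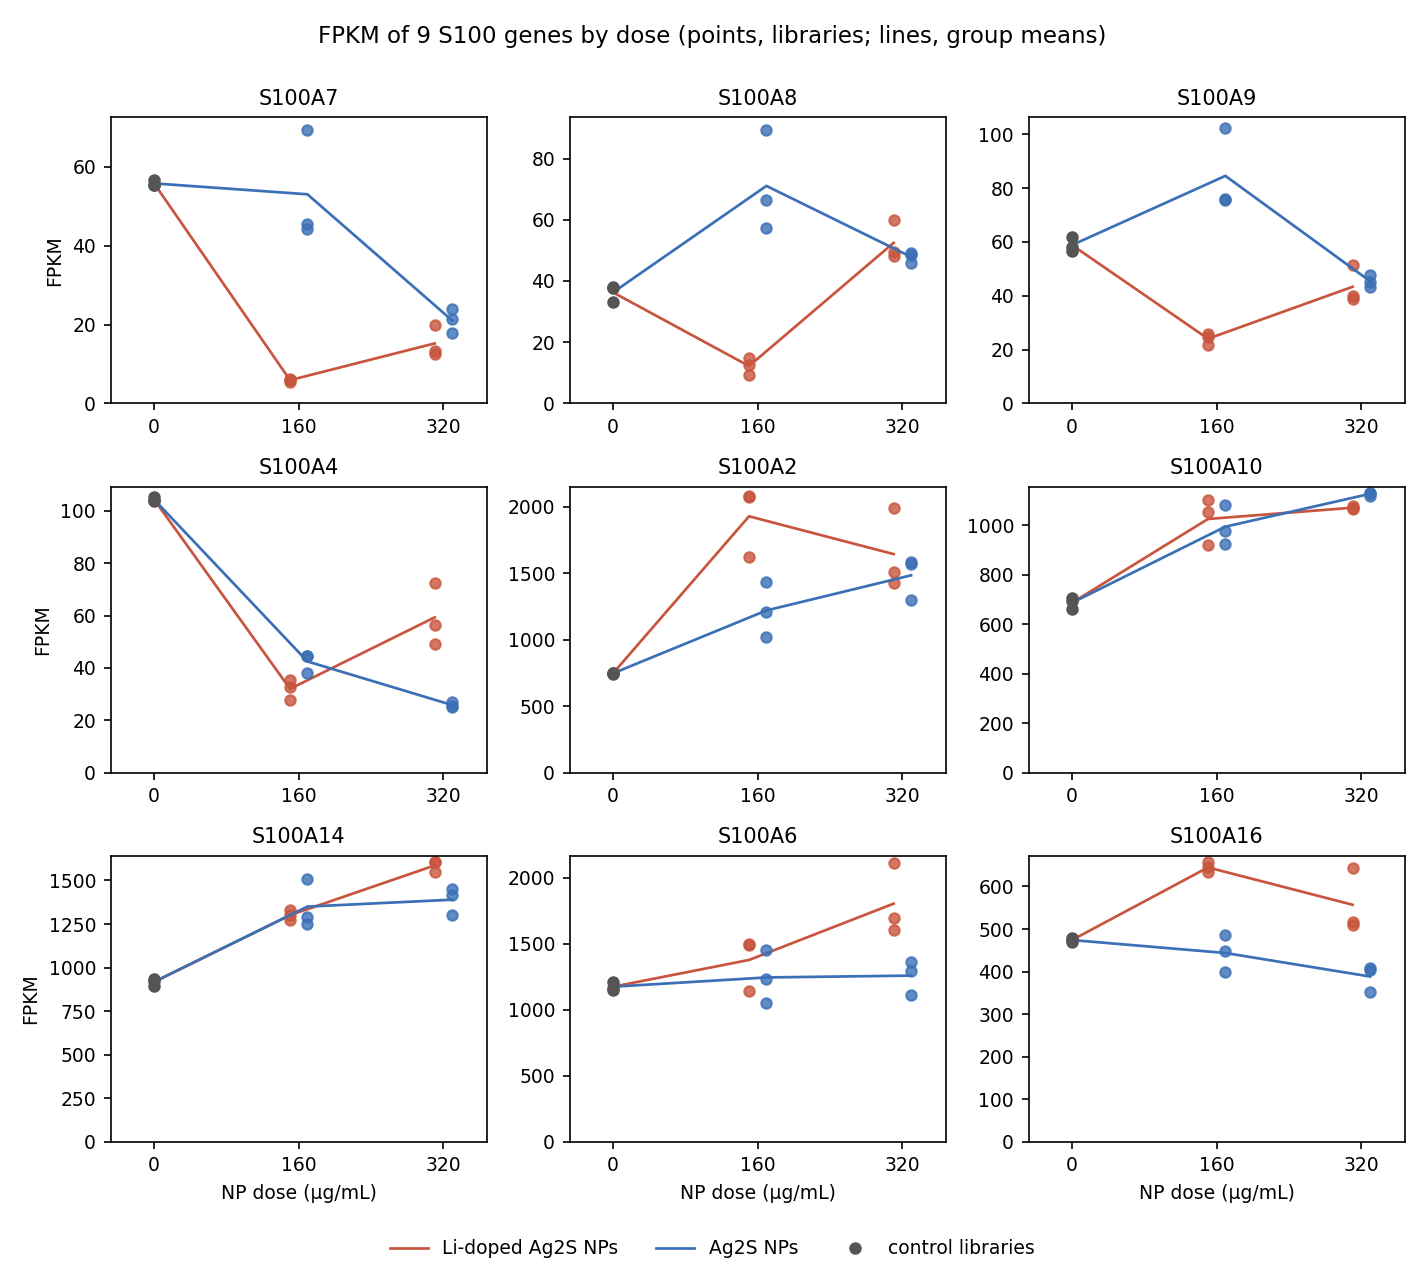
FPKM (vertical axis, from 0) of the 9 tested S100 genes at 0, 160 and 320 μg/mL (horizontal axis). Points are libraries, shifted slightly sideways for each particle, and lines join group means. S100A7, S100A8 and S100A9 lie lowest with Li-doped Ag2S NPs at 160 μg/mL, where S100A7 has 5.36 to 6.31 FPKM against 55.3 to 56.8 FPKM in control.

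The first question was which members differed from control with each particle and dose. A gene was called at an adjusted p under 0.05 (Benjamini and Hochberg over all tested genes, limma, both sides). Across all tested genes the median log2 difference from control was -0.19 with Li-doped Ag2S NPs and -0.14 with Ag2S NPs at 160 μg/mL, and -0.26 with Li-doped Ag2S NPs and -0.19 with Ag2S NPs at 320 μg/mL, so that a member without a difference sat above the middle of the genes. Where scaling each library by its median ratio, which sets these medians near 0, changes the call of a member, this is said beside it. The 4 comparisons share the control libraries. Where groups are said not to overlap, this describes the libraries and is no further test. The share of all genes without overlap is not given.

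With Li-doped Ag2S NPs at 160 μg/mL, 4 of the 9 tested members rose (S100A2, S100A10, S100A14 and S100A16), against 22.6% of all genes, and 4 fell (S100A4, S100A7, S100A8 and S100A9), against 40.6%. With Ag2S NPs at 160 μg/mL, 5 rose (S100A2, S100A8, S100A9, S100A10 and S100A14), against 11.5% of all genes, and S100A4 alone fell, against 23.8%. With Li-doped Ag2S NPs at 320 μg/mL, 5 rose (S100A2, S100A6, S100A8, S100A10 and S100A14), against 17% of all genes, and 3 fell (S100A4, S100A7 and S100A9), against 44.6%. With Ag2S NPs at 320 μg/mL, 4 rose (S100A2, S100A8, S100A10 and S100A14), against 16.2%, and 4 fell (S100A4, S100A7, S100A9 and S100A16), against 36.2%. S100A2, S100A10 and S100A14 rose and S100A4 fell in all 4 comparisons. These share the control libraries, and the share of all genes called the same way in all 4 is not given. The median log2 difference of the 9 members was 0.22 with Li-doped Ag2S NPs and 0.51 with Ag2S NPs at 160 μg/mL, and 0.53 with Li-doped Ag2S NPs and 0.09 with Ag2S NPs at 320 μg/mL. After scaling by median ratio the shares of all genes were 30.5% higher and 30.2% lower with Li-doped Ag2S NPs and 17.2% and 12.8% with Ag2S NPs at 160 μg/mL, and 28.3% and 26% with Li-doped Ag2S NPs and 24.1% and 21.4% with Ag2S NPs at 320 μg/mL.

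**Figure D2:**
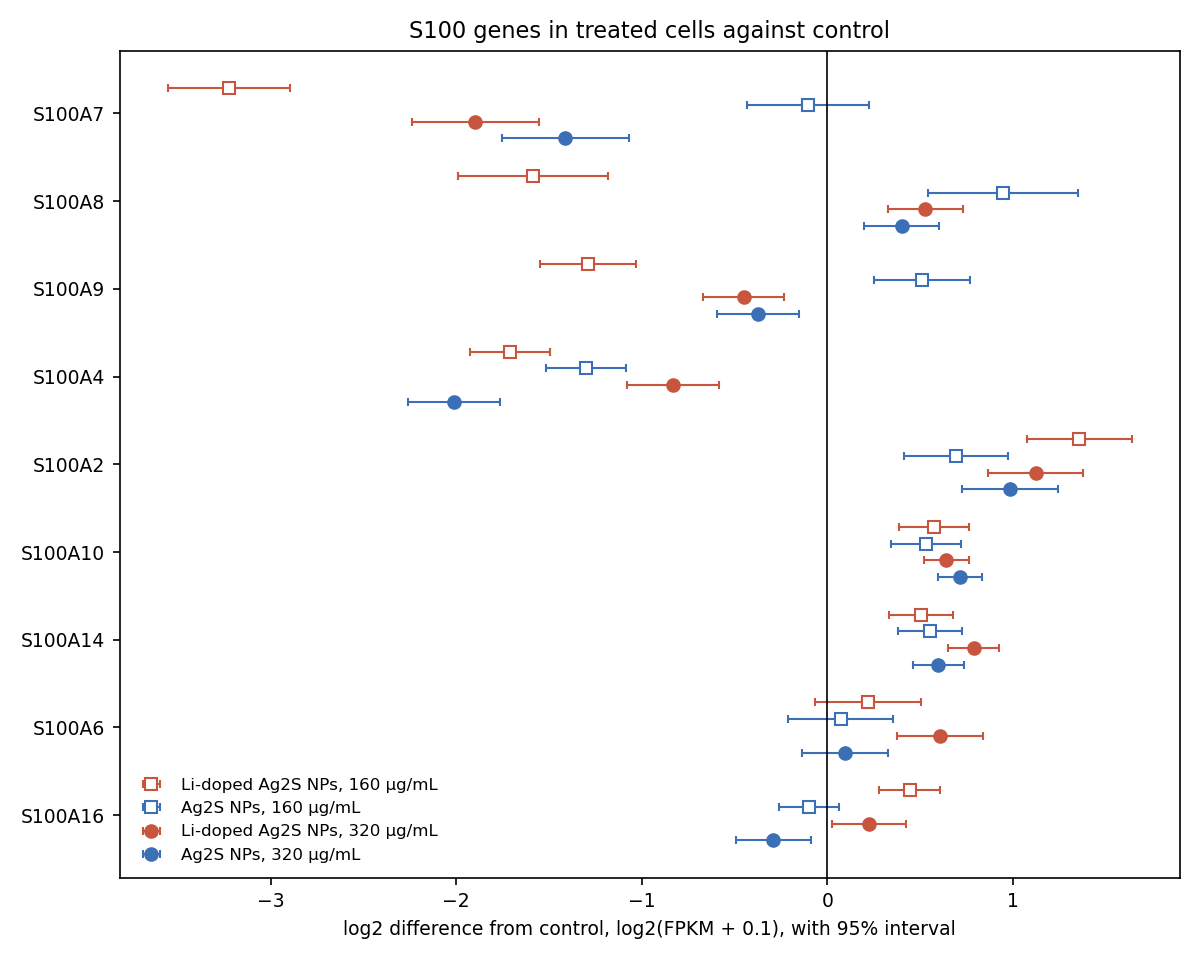
Log2 difference from control (horizontal axis, log2(FPKM + 0.1)) of the 9 tested S100 genes (rows), with 95% intervals from limma. Open squares are 160 μg/mL and filled circles 320 μg/mL, in red for Li-doped Ag2S NPs and blue for Ag2S NPs. S100A7 with Li-doped Ag2S NPs at 160 μg/mL is farthest from 0, at -3.23. S100A2, S100A6, S100A10 and S100A14 lie right of 0 in all 4 groups, with intervals of S100A6 that cross 0 except with Li-doped Ag2S NPs at 320 μg/mL.

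S100A7, S100A8 and S100A9, the antimicrobial members, fell together with Li-doped Ag2S NPs at 160 μg/mL and did not with Ag2S NPs at that dose. S100A7 had 6.31, 6.01 and 5.36 FPKM with Li-doped Ag2S NPs at 160 μg/mL, and 44.3, 45.6 and 69.4 FPKM with Ag2S NPs at 160 μg/mL, against 55.3, 55.3 and 56.8 FPKM in control. With the Li-doped particles all 3 libraries were far below control, and with Ag2S NPs they fell on both sides of it. The log2 difference from control was -3.23 (SE 0.149, adjusted p = 2.14e-08) with Li-doped Ag2S NPs and -0.10 (95% interval -0.43 to 0.23, adjusted p = 0.608) with Ag2S NPs. Without replicate 6 of Ag2S NPs at 160 μg/mL, the highest library, the second value became -0.31 (adjusted p = 0.0224).

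At 320 μg/mL S100A7 had 13.3, 12.6 and 19.8 FPKM with Li-doped Ag2S NPs and 17.9, 24.0 and 21.4 FPKM with Ag2S NPs. Both groups were below every control library and they overlapped each other. S100A7 fell with both particles, by a log2 difference of -1.90 (SE 0.156, adjusted p = 2.12e-06) with Li-doped Ag2S NPs and -1.41 (SE 0.156, adjusted p = 2.36e-05) with Ag2S NPs.

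S100A8, a subunit of calprotectin, had 12.6, 14.8 and 9.22 FPKM with Li-doped Ag2S NPs at 160 μg/mL and 57.3, 66.5 and 89.4 FPKM with Ag2S NPs at 160 μg/mL, against 38.1, 33.1 and 37.6 FPKM in control. The particles thus took it to opposite sides of control, with no overlap. The log2 difference was -1.59 (SE 0.183, adjusted p = 2.25e-05) with Li-doped Ag2S NPs and 0.95 (SE 0.183, adjusted p = 0.00324) with Ag2S NPs. The higher dose gave 48.1, 49.5 and 59.9 FPKM with Li-doped Ag2S NPs and 46.0, 48.4 and 49.2 FPKM with Ag2S NPs. It was above control in all 6 of these libraries. The log2 difference was 0.53 (SE 0.0919, adjusted p = 0.000527) with Li-doped Ag2S NPs and 0.40 (SE 0.0919, adjusted p = 0.00367) with Ag2S NPs, and in 1 fit over all 15 libraries the value for Ag2S NPs did not pass (adjusted p = 0.0521).

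S100A9, the other subunit, had 25.7, 21.5 and 24.8 FPKM with Li-doped Ag2S NPs at 160 μg/mL and 75.9, 75.5 and 102 FPKM with Ag2S NPs at 160 μg/mL, against 61.9, 58.1 and 56.5 FPKM in control. As for S100A8, the particles took it to opposite sides of control. It fell by 1.29 on the log2 scale (SE 0.117, adjusted p = 3.63e-06) with Li-doped Ag2S NPs and rose by 0.51 (SE 0.117, adjusted p = 0.008) with Ag2S NPs. The higher dose gave 38.6, 40.0 and 51.3 FPKM with Li-doped Ag2S NPs and 43.4, 47.7 and 45.2 FPKM with Ag2S NPs, all below control. The log2 difference was -0.45 (adjusted p = 0.00249) with Li-doped Ag2S NPs and -0.37 (adjusted p = 0.00906) with Ag2S NPs, and after scaling by median ratio neither passed (-0.19, adjusted p = 0.224, and -0.19, adjusted p = 0.246).

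The balance of the calprotectin subunit RNAs was read as a ratio. The ratio of S100A9 to S100A8 FPKM was 1.63 ± 0.126 in control, 2.06 ± 0.618 with Li-doped Ag2S NPs and 1.20 ± 0.107 with Ag2S NPs at 160 μg/mL, and 0.823 ± 0.0291 with Li-doped Ag2S NPs and 0.949 ± 0.0331 with Ag2S NPs at 320 μg/mL (SD, n = 3). It was above 1 in all 9 libraries of control and 160 μg/mL and below 1 in all 6 of 320 μg/mL. The ratio does not depend on the scaling of a library. In an exact permutation test of the log2 ratio against control, two-sided with 3 libraries against 3, each particle at 320 μg/mL and Ag2S NPs at 160 μg/mL gave p = 0.1, the smallest this design allows, and Li-doped Ag2S NPs at 160 μg/mL gave p = 0.4, its libraries lying on both sides of control. Between 320 and 160 μg/mL the log2 ratio differed by -1.28 with Li-doped Ag2S NPs and -0.34 with Ag2S NPs, each with p = 0.1 in the same exact test. With 3 libraries against 3 this test cannot pass 0.05, so no conclusion on the ratio is drawn from it.

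**Figure D3:**
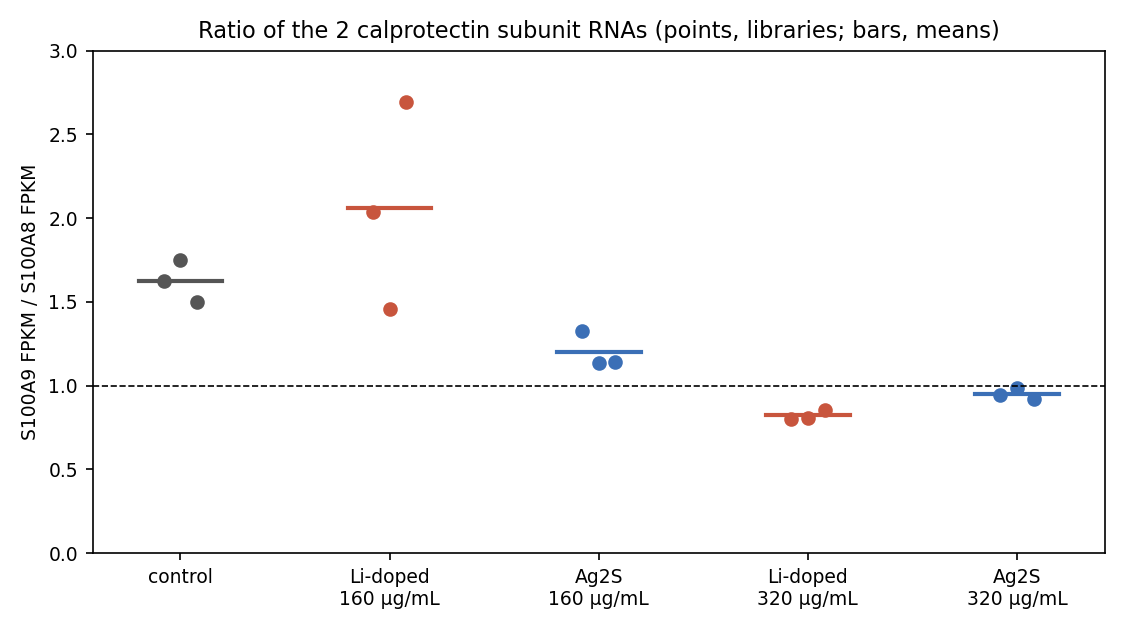
S100A9 FPKM divided by S100A8 FPKM (vertical axis, from 0) in each library of the 5 groups, with bars at group means and a dashed line at 1. All 6 libraries of 320 μg/mL lie between 0.804 and 0.984, below the other 9.

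S100A12, the third calgranulin, lies between S100A9 and S100A8 and is not among the 10 members. It was low, at 0, 0.26 and 0.54 FPKM with Li-doped Ag2S NPs at 160 μg/mL and 2.43 to 3.48 FPKM with Ag2S NPs at 160 μg/mL, against 0.55 to 3.12 FPKM in control. It fell with Li-doped Ag2S NPs at 160 μg/mL by 2.67 on the log2 scale (adjusted p = 0.00705), and with Ag2S NPs its difference was 0.65 (adjusted p = 0.498).

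S100A4 (metastasin), which binds non-muscle myosin and is known for cell motility, was the member that fell in every treated group. It had 56.4, 49.1 and 72.3 FPKM with Li-doped Ag2S NPs at 320 μg/mL, 25.1, 27.1 and 25.3 FPKM with Ag2S NPs at 320 μg/mL, 35.5, 32.8 and 27.6 FPKM with Li-doped Ag2S NPs at 160 μg/mL, and 44.6, 38.2 and 44.6 FPKM with Ag2S NPs at 160 μg/mL, against 104, 104 and 105 FPKM in control. No library of treated cells overlapped with control, nor did any 2 treated groups overlap each other. The log2 difference from control was -0.83 (SE 0.114, adjusted p = 9.62e-05) and -2.01 (SE 0.114, adjusted p = 1.16e-07) with Li-doped Ag2S NPs and Ag2S NPs at 320 μg/mL, and -1.71 (SE 0.0975, adjusted p = 1.02e-07) and -1.30 (SE 0.0975, adjusted p = 8.61e-06) with Li-doped Ag2S NPs and Ag2S NPs at 160 μg/mL. MYH9, the heavy chain of non-muscle myosin to which S100A4 binds, had 303 to 355 FPKM with Li-doped Ag2S NPs and 236 to 260 FPKM with Ag2S NPs at 160 μg/mL, against 155 to 161 FPKM in control, and rose by 1.02 (adjusted p = 6.75e-07) and 0.63 (adjusted p = 0.000164) on the log2 scale.

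S100A2, an epithelial member found in basal keratinocytes and known as a target of p53 family proteins, rose most among the 9 members with Li-doped Ag2S NPs at 160 μg/mL. It had 2082, 2073 and 1624 FPKM with Li-doped Ag2S NPs at 160 μg/mL and 1017, 1204 and 1435 FPKM with Ag2S NPs at 160 μg/mL, against 750.1, 742 and 746 FPKM in control. The higher dose gave 1509, 1428 and 1990.3 FPKM with Li-doped Ag2S NPs and 1299, 1581 and 1568 FPKM with Ag2S NPs. All 12 libraries of treated cells were above control, and the particles were separate at 160 μg/mL and overlapped at 320 μg/mL. The log2 difference from control was 1.36 (SE 0.127, adjusted p = 4.67e-06) with Li-doped Ag2S NPs and 0.69 (SE 0.127, adjusted p = 0.00246) with Ag2S NPs at 160 μg/mL, and 1.12 (SE 0.117, adjusted p = 1.35e-05) with Li-doped Ag2S NPs and 0.98 (SE 0.117, adjusted p = 4.07e-05) with Ag2S NPs at 320 μg/mL.

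S100A14 and S100A16 are epithelial members and neighbours in the genome. S100A14, known for roles in epithelial motility, rose in every treated group. S100A14 had 1549, 1605 and 1605 FPKM with Li-doped Ag2S NPs and 1302, 1450.1 and 1417 FPKM with Ag2S NPs at 320 μg/mL, and 1273, 1299 and 1330.3 FPKM with Li-doped Ag2S NPs and 1252, 1291 and 1507 FPKM with Ag2S NPs at 160 μg/mL, against 892, 926 and 935 FPKM in control. All treated libraries were above control. The log2 difference ran from 0.50 (SE 0.0781, adjusted p = 0.000209) with Li-doped Ag2S NPs at 160 μg/mL to 0.79 (SE 0.0628, adjusted p = 1.59e-06) with Li-doped Ag2S NPs at 320 μg/mL.

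S100A16 had 656, 633 and 645 FPKM with Li-doped Ag2S NPs at 160 μg/mL and 398, 448 and 485 FPKM with Ag2S NPs at 160 μg/mL, against 469.8, 479 and 473 FPKM in control. With the Li-doped particles it was above control, and with Ag2S NPs it reached both sides. It rose by 0.44 on the log2 scale (SE 0.0736, adjusted p = 0.000338) with Li-doped Ag2S NPs, and with Ag2S NPs the difference was -0.10 (95% interval -0.26 to 0.06, adjusted p = 0.309). The higher dose gave 517, 510.2 and 644 FPKM with Li-doped Ag2S NPs and 352, 409.6 and 404 FPKM with Ag2S NPs, on opposite sides of control. The difference was 0.22 (adjusted p = 0.052) with Li-doped Ag2S NPs and -0.29 (adjusted p = 0.0204) with Ag2S NPs. On which side of the threshold these values fell depended on single libraries and on scaling. The difference with Li-doped Ag2S NPs passed without Ag2S replicate 7 (adjusted p = 0.0419) or Li-doped replicate 13 or 14 (0.0413 and 0.0271) and after scaling by median ratio (0.48, adjusted p = 0.00747). That with Ag2S NPs did not pass without control replicate 2 or 3 (0.0595 and 0.0522), without Ag2S replicate 7 (0.0793) or after scaling by median ratio (-0.11, adjusted p = 0.5).

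S100A10 (p11), which binds ANXA2 at the plasma membrane and does not need calcium to do so, rose in all treated groups. It had 1077, 1067 and 1071 FPKM with Li-doped Ag2S NPs and 1121, 1133 and 1129.6 FPKM with Ag2S NPs at 320 μg/mL, and 1104, 1054 and 921 FPKM with Li-doped Ag2S NPs and 926, 977 and 1082 FPKM with Ag2S NPs at 160 μg/mL, against 694, 661 and 706 FPKM in control. All 12 treated libraries were above control. The log2 difference ran from 0.53 (SE 0.0853, adjusted p = 0.00115) with Ag2S NPs at 160 μg/mL to 0.72 (SE 0.0548, adjusted p = 1.33e-06) with Ag2S NPs at 320 μg/mL. ANXA2, its partner, had 1590.2 to 1739 FPKM with Li-doped Ag2S NPs and 1916 to 2054 FPKM with Ag2S NPs at 320 μg/mL, and 2383 to 2510 FPKM with Li-doped Ag2S NPs and 1697 to 1993 FPKM with Ag2S NPs at 160 μg/mL, against 1405 to 1445 FPKM in control. It rose in all 4 comparisons, by 0.21 to 0.79 on the log2 scale (adjusted p = 0.0143 with Li-doped Ag2S NPs at 320 μg/mL and 6.85e-06 with Li-doped Ag2S NPs at 160 μg/mL). The lowest of these, 0.21 with Li-doped Ag2S NPs at 320 μg/mL, was 0.47 after scaling by median ratio and 0.08 (adjusted p = 0.0961), no longer called, after scaling by summed FPKM.

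S100A6 (calcyclin), a partner of CACYBP and annexins that is high in dividing cells, differed from control with Li-doped Ag2S NPs at 320 μg/mL. It had 1607, 1695 and 2113 FPKM there and 1115, 1297 and 1366 FPKM with Ag2S NPs at 320 μg/mL, and 1488, 1503 and 1144 FPKM with Li-doped Ag2S NPs and 1051, 1234 and 1453 FPKM with Ag2S NPs at 160 μg/mL, against 1209, 1151 and 1166 FPKM in control. All libraries with Li-doped Ag2S NPs at 320 μg/mL were above control, and in the other 3 groups they spread over it. The log2 difference was 0.61 (SE 0.105, adjusted p = 0.000502) with Li-doped Ag2S NPs at 320 μg/mL, and 0.09 (95% interval -0.14 to 0.33) with Ag2S NPs at 320 μg/mL, 0.22 (-0.07 to 0.50) with Li-doped Ag2S NPs and 0.07 (-0.21 to 0.36) with Ag2S NPs at 160 μg/mL. At 160 μg/mL with Li-doped Ag2S NPs it passed without replicate 12 (0.35, adjusted p = 0.0244) and after scaling by median ratio (0.41, adjusted p = 0.023).

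S100A11 (calgizzarin), a partner of ANXA1 that keratinocytes are known to express, was listed at 0 to 0.52 FPKM in all 15 libraries, and no fold change is given for it. GENCODE 29 has 2 transcripts of this gene, 1 of them protein-coding, and the tables list the other one, the processed transcript ENST00000478109. The values therefore say nothing of the S100A11 mRNA.

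The second question was where the particles differed at the same dose. At 160 μg/mL, 2 of the 9 members were higher with Li-doped Ag2S NPs than with Ag2S NPs (S100A2 and S100A16), against 21.4% of all tested genes, and 4 were lower (S100A4, S100A7, S100A8 and S100A9), against 29%. The log2 difference, Li-doped minus Ag2S, was -3.12 for S100A7 (SE 0.149, adjusted p = 6.86e-08), -2.53 for S100A8 (SE 0.183, adjusted p = 1.27e-06), -1.80 for S100A9 (SE 0.117, adjusted p = 6.07e-07) and -0.41 for S100A4 (SE 0.0975, adjusted p = 0.00492). It was 0.67 for S100A2 (SE 0.127, adjusted p = 0.00134) and 0.54 for S100A16 (SE 0.0736, adjusted p = 0.00013). For these 6 members the libraries of the particles did not overlap, and the share of all genes of which this holds is not given. The 95% interval of the difference was -0.15 to 0.23 for S100A10, -0.22 to 0.12 for S100A14 and -0.14 to 0.43 for S100A6.

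At 320 μg/mL 4 members were higher with Li-doped Ag2S NPs than with Ag2S NPs (S100A4, S100A6, S100A14 and S100A16), against 10.1% of all genes, and S100A7 was lower, against 16.1%. S100A4 was 1.18 higher on the log2 scale (SE 0.114, adjusted p = 6.1e-05), S100A16 0.51 higher (SE 0.0916, adjusted p = 0.00276) and S100A6 0.51 higher (SE 0.105, adjusted p = 0.00582), with no overlap between the groups. The difference of S100A14 (0.19, adjusted p = 0.0433) passed in 1 of the 9 fits that left out a library (adjusted p of 0.0424 to 0.146) and did not after scaling by summed FPKM (0.09, adjusted p = 0.21), and that of S100A7 (-0.49, adjusted p = 0.0412) in 2 of 9 (adjusted p of 0.0015 to 0.142) and did not after scaling by median ratio (-0.41, adjusted p = 0.133). The 95% interval was -0.08 to 0.33 for S100A8, -0.30 to 0.14 for S100A9, -0.12 to 0.40 for S100A2 and -0.19 to 0.05 for S100A10. Without replicate 15 of Li-doped Ag2S NPs S100A9 passed as lower (-0.21, adjusted p = 0.0453). S100A4 was thus lower with Li-doped Ag2S NPs at 160 μg/mL and higher with them at 320 μg/mL.

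The third question was how the doses differed for each particle, in 1 fit over the 15 libraries. For Li-doped Ag2S NPs, 6 members were higher at 320 than at 160 μg/mL (S100A4, S100A6, S100A7, S100A8, S100A9 and S100A14), against 19.6% of all genes, and 0 were lower in limma, against 23.3%, with 1 lower (S100A16) at an unadjusted p under 0.05. The log2 difference, 320 minus 160 μg/mL, was 2.11 for S100A8 (SE 0.163, adjusted p = 8.36e-08), 1.33 for S100A7 (SE 0.178, adjusted p = 2.59e-05), 0.88 for S100A4 (SE 0.121, adjusted p = 3.39e-05), 0.84 for S100A9 (SE 0.122, adjusted p = 5.64e-05) and 0.29 for S100A14 (SE 0.0743, adjusted p = 0.00577). That of S100A6 (0.39, adjusted p = 0.0287) did not pass without replicate 12 of Li-doped Ag2S NPs at 160 μg/mL (0.26, adjusted p = 0.135) or replicate 15 of Li-doped Ag2S NPs at 320 μg/mL (0.27, adjusted p = 0.134). Without replicate 15, S100A2 (-0.38, adjusted p = 0.0395) and S100A16 (-0.33, adjusted p = 0.00577) passed as lower.

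For Ag2S NPs, 4 members were lower at 320 than at 160 μg/mL (S100A4, S100A7, S100A8 and S100A9), against 7.68% of all genes, and 0 were higher in limma, against 4.84%, with 1 higher (S100A10) at an unadjusted p under 0.05. The difference was -1.31 for S100A7 (SE 0.178, adjusted p = 0.00023), -0.88 for S100A9 (SE 0.122, adjusted p = 0.00027) and -0.71 for S100A4 (SE 0.121, adjusted p = 0.00141). That of S100A8 (-0.54, adjusted p = 0.0395) did not pass in 7 of the 15 fits that left out a library, and was -0.37 (adjusted p = 0.166) without replicate 6 of Ag2S NPs at 160 μg/mL. After scaling by median ratio it did not pass either (-0.50, adjusted p = 0.0773).

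The same 4 members were thus higher at 320 than at 160 μg/mL for Li-doped Ag2S NPs and lower for Ag2S NPs. Against control, S100A4, S100A7 and S100A9 were still lower with Li-doped Ag2S NPs at 320 μg/mL (-0.83, -1.90 and -0.45), S100A9 not after scaling by median ratio. The difference between the particles in the effect of dose was called for 5 of the 9 members, against 39.7% of all genes. It was 2.66 for S100A8 (SE 0.230, adjusted p = 3.82e-07), 2.64 for S100A7 (SE 0.251, adjusted p = 1.06e-06), 1.72 for S100A9 (SE 0.173, adjusted p = 1.78e-06) and 1.59 for S100A4 (SE 0.171, adjusted p = 3.56e-06), each passing in all 15 fits that left out a library. That of S100A2 (-0.53, adjusted p = 0.0474) passed in 4 of those 15 (adjusted p of 0.00977 to 0.115) and did not after scaling by median ratio (-0.50, adjusted p = 0.105), and that of S100A14 (0.24, adjusted p = 0.0809) passed without replicate 4 of Ag2S NPs at 160 μg/mL (0.29, adjusted p = 0.0419).

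**Figure D4:**
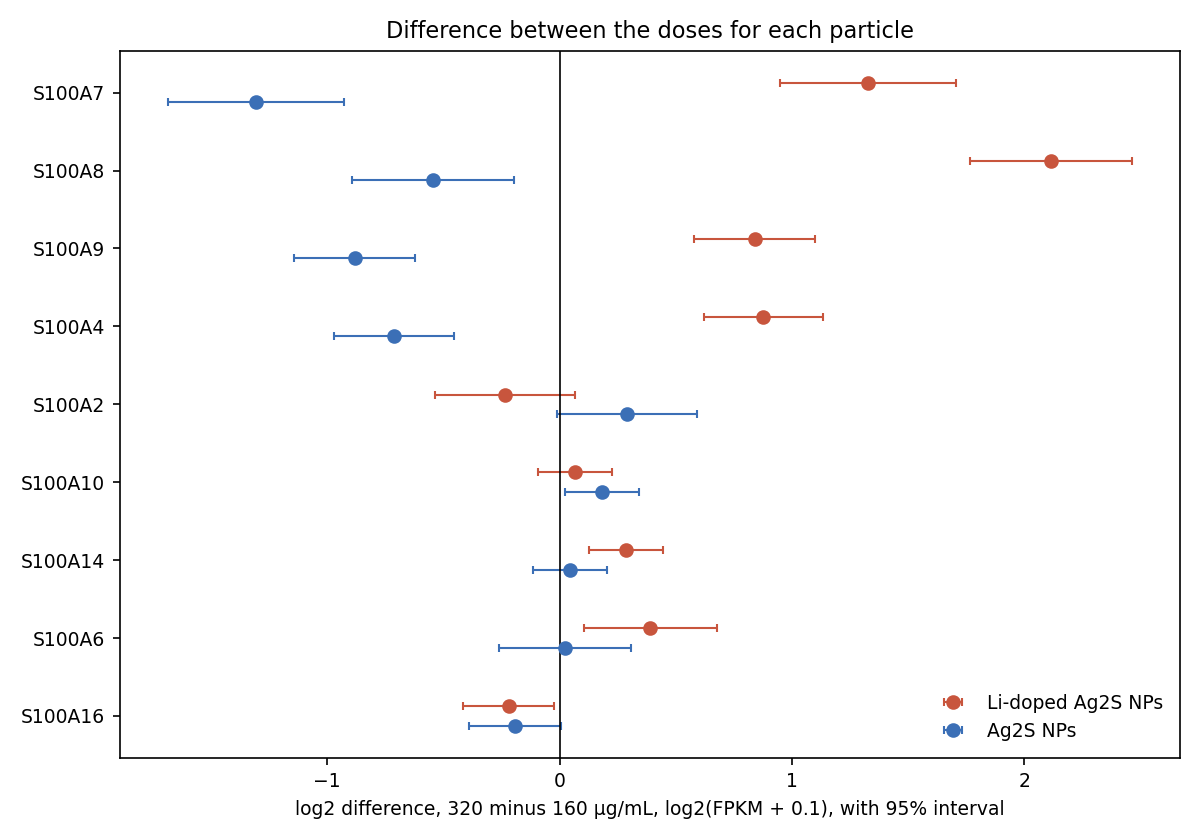
Log2 difference between 320 and 160 μg/mL (horizontal axis, 320 minus 160, log2(FPKM + 0.1)) of the 9 tested S100 genes (rows) for Li-doped Ag2S NPs (red) and Ag2S NPs (blue), with 95% intervals from limma. S100A7, S100A8, S100A9 and S100A4 lie right of 0 for Li-doped Ag2S NPs, at 0.84 to 2.11, and left of 0 for Ag2S NPs, at -1.31 to -0.54.

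Transcript FPKM were listed for each member. In each group a single protein-coding transcript made up at least 90% of the gene's transcript FPKM for S100A6 and S100A8, all of whose GENCODE 29 transcripts are listed, and for S100A14, with 5 of 6 listed. S100A9 has 1 transcript and only 1 of the 2 of S100A7 is listed, so their shares say nothing of isoforms. For S100A2 the coding transcript ENST00000368708 held 47.9% of the transcript FPKM with Li-doped Ag2S NPs and 53.3% with Ag2S NPs at 160 μg/mL, against 52.3% in control, and ENST00000368709 held 40.1% and 34.97%, against 36.9% in control. For S100A4 5 of 6 transcripts are listed. Its main coding transcript ENST00000368715 held 63.7% with Li-doped Ag2S NPs and 40.9% with Ag2S NPs at 160 μg/mL, against 48.5% in control. Library values ran from 49.9% to 70.3% with the Li-doped particles and overlapped with 40.5% to 53.9% in control. ENST00000481009, a processed transcript that is not protein-coding, held 19.1% and 35.4%, against 34.5% in control. The coding ENST00000368716 held 12.8% and 15.9%, against 12.2% in control. These shares are estimates of the authors' assembly software and were not tested.

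The genes whose pattern over the 15 libraries was most like that of a member were taken by the root mean square distance of log2(FPKM + 0.1), each gene set to its own mean, among 11952 genes without the S100 family, for the 5 members whose group means spanned over 1 on the log2 scale. For S100A7 they were CD86 (distance 0.261), CENPW and AC135048.1, for S100A8 SELENOP (0.332), B3GALT4 and SSBP3, and for S100A9 TMEM35B (0.219), HMGB1 and ANKRD65. For S100A4 they were PRADC1 (0.274), LSS and WDR62, and for S100A2 SH3BGRL3 (0.128), TMSB10 and ETHE1. HMGB1, itself a nuclear protein that acts as an alarmin when released, fell by 1.52 on the log2 scale with Li-doped Ag2S NPs at 160 μg/mL. Its difference with Ag2S NPs at that dose was -0.06. Because HMGB1 was picked here for its likeness to S100A9 in these same libraries, a like pattern follows from the choice, and no test is given beside it.

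Of 13 genes of proteins known to bind S100 proteins 12 were tested. With Li-doped Ag2S NPs at 160 μg/mL 5 of the 12 rose (ANXA1, ANXA2, CACYBP, MYH9 and STIP1), against 22.6% of all genes, and 3 fell (ANXA11, AHNAK and METAP2), against 40.6%. At 320 μg/mL 3 rose (ANXA2, MYH9 and SUGT1), against 17%, and 5 fell (ANXA1, ANXA11, METAP2, PPFIBP1 and IQGAP1), against 44.6%. With Ag2S NPs ANXA2, MYH9 and SUGT1 rose at both doses, ANXA11 fell at both, and METAP2 and STIP1 fell at 320 μg/mL, which makes 3 higher at each dose (against 11.5% and 16.2% of all genes) and 1 and 3 lower (against 23.8% and 36.2%). After scaling by median ratio AHNAK with Li-doped Ag2S NPs at 160 μg/mL, ANXA1 with them at 320 μg/mL (0.08, above 0) and METAP2 and STIP1 with Ag2S NPs at 320 μg/mL no longer passed as lower, while ANXA1 with Ag2S NPs at 320 μg/mL, STIP1 with Li-doped Ag2S NPs at 320 μg/mL and SUGT1 with Li-doped Ag2S NPs at 160 μg/mL passed as higher. CACYBP with Li-doped Ag2S NPs at 160 μg/mL and SUGT1 with them at 320 μg/mL did not pass after scaling by summed FPKM. The median log2 difference of the 12 was 0.03 with Li-doped Ag2S NPs and -0.07 with Ag2S NPs at 160 μg/mL, and -0.19 with Li-doped Ag2S NPs and -0.045 with Ag2S NPs at 320 μg/mL. Those other than ANXA2, ANXA11, MYH9 and METAP2 are named after their values were seen. ANXA11, an annexin that S100A6 binds, had 82.7 to 104 FPKM with Li-doped Ag2S NPs and 111 to 126 FPKM with Ag2S NPs at 160 μg/mL, against 159 to 165 FPKM in control, and fell in all 4 comparisons, by 0.47 to 0.89 on the log2 scale. Of 5 receptors 3 were tested, and in each comparison with control BSG, a receptor of S100A9, rose (by 0.43 to 0.88), ALCAM, another, fell (by 0.51 to 1.21) and AGER, the receptor RAGE, did not pass. Of 7 genes of the S100-fused type 3 were listed (TCHH, TCHHL1 and RPTN), and none of these had a group mean of 1 FPKM.

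Of 18 other antimicrobial and alarmin genes 10 were tested at 160 μg/mL, and with Li-doped Ag2S NPs 7 of them rose, against 22.6% of all genes, and HMGB1 fell, against 40.6%. After scaling by median ratio 9 rose, LCN2 and IL1RN being added, and after scaling by summed FPKM PI3 and IL36G did not pass. IL1A, an epithelial alarmin, had 40.9 to 50.3 FPKM with Li-doped Ag2S NPs and 4.24 to 4.39 FPKM with Ag2S NPs at 160 μg/mL, against 1.1 to 1.19 FPKM in control, a log2 difference of 5.23 (adjusted p = 1.41e-10) and 1.82 (adjusted p = 3.25e-06). RNASE7, an antimicrobial ribonuclease of keratinocytes, had 18.3 to 21.3 FPKM with Li-doped Ag2S NPs and 1.72 to 2.21 FPKM with Ag2S NPs at 160 μg/mL, against 2.41 to 3.77 FPKM in control, and rose by 2.64 (adjusted p = 3.35e-07) with the Li-doped particles. With Ag2S NPs at 160 μg/mL 3 of the 10 rose (IL1A, IL1B and IL18), against 11.5% of all genes, and 2 fell (RNASE7 and IL1RN), against 23.8%. Of the 11 tested at 320 μg/mL, 5 rose (IL1A, IL1B, IL18, PI3 and SLPI), against 17%, and 3 fell (LCN2, IL1RN and HMGB1), against 44.6%, with Li-doped Ag2S NPs. With Ag2S NPs 3 of these rose (IL1A, IL1B and IL18), against 16.2%, and 4 fell (LCN2, PI3, IL1RN and HMGB1), against 36.2%. After scaling by median ratio IL1RN no longer passed as lower in any of these comparisons and lay at 0.07 with Li-doped Ag2S NPs at 320 μg/mL, and RNASE7 with Ag2S NPs at 160 μg/mL and LCN2 and PI3 with Ag2S NPs at 320 μg/mL did not pass. The median log2 difference of the list was 0.63 with Li-doped Ag2S NPs and 0.08 with Ag2S NPs at 160 μg/mL, and 0.30 with Li-doped Ag2S NPs and 0.02 with Ag2S NPs at 320 μg/mL.

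Between the first and the last member on chromosome 1 the tables list 30 other genes, mostly of the cornified envelope, of which 10 were tested at 160 μg/mL and 6 at 320 μg/mL. SPRR2D, LCE1F, PRR9 and LCE1C reached a mean of 1 FPKM at 160 μg/mL only through Li-doped Ag2S NPs, where they were highest, so their differences are given no test. SPRR2D, a small proline-rich envelope protein, had 11.7 to 15.6 FPKM there and 0 to 0.13 FPKM with Ag2S NPs at 160 μg/mL and was listed at 0 in all control libraries. Of the other 6 genes 3 rose (SPRR1A, SPRR1B and LCE3E) and 3 fell with Li-doped Ag2S NPs at 160 μg/mL, against 22.6% and 40.6% of all genes. IVL (involucrin, an early envelope precursor) had 0.66 to 0.91 FPKM with Li-doped Ag2S NPs and 3.92 to 4.45 FPKM with Ag2S NPs at 160 μg/mL, against 8.29 to 9.65 FPKM in control, and fell by 3.36 and 1.09 on the log2 scale (adjusted p = 3.19e-08 and 0.000777). The other genes that fell there, PGLYRP3 and PGLYRP4, are antimicrobial peptidoglycan recognition proteins and are named after their values were seen, at -1.71 (adjusted p = 0.000472) and -2.06 (adjusted p = 0.00014). With Ag2S NPs at 160 μg/mL 3 of these 6 rose (SPRR1A, SPRR1B and LCE3E), against 11.5% of all genes, and 1 fell (IVL), against 23.8%. At 320 μg/mL the same 3 of 6 rose and 2 fell (IVL and PGLYRP3) with each particle. The shares of all genes were 17% higher and 44.6% lower with Li-doped Ag2S NPs, and 16.2% and 36.2% with Ag2S NPs. PGLYRP3 with Li-doped Ag2S NPs at 320 μg/mL did not pass after scaling by median ratio.

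Of the further S100 genes 7 were listed, and 5 of them were tested at 160 μg/mL and 3 at 320 μg/mL. Without S100P, 4 were tested at 160 μg/mL. With Li-doped Ag2S NPs 1 of the 4 rose (S100A5), against 22.6% of all genes, and 1 fell (S100A12), against 40.6%. S100A5 was near the filter, at 1.01 to 1.7 FPKM with Li-doped Ag2S NPs at 160 μg/mL, against 0.62 to 0.83 FPKM in control. S100P, which is induced in several epithelial tumors, had 3 to 6.45 FPKM with Li-doped Ag2S NPs and 0 to 0.09 FPKM with Ag2S NPs at 160 μg/mL, against 0.57 to 2 FPKM in control. It reached a mean of 1 FPKM only through Li-doped Ag2S NPs at 160 μg/mL, so no test is given for it. With Ag2S NPs 2 of 3 libraries were listed at 0. S100A13, at 109 to 254 FPKM the most abundant S100 gene outside the 10, passed in no comparison with control, with log2 differences of -0.32 to 0.26, and passed as higher with Li-doped Ag2S NPs at 320 μg/mL after scaling by median ratio (0.52) and as lower with Li-doped Ag2S NPs at 160 μg/mL after scaling by summed FPKM (-0.40). With Ag2S NPs at 160 μg/mL 1 of the same 4 rose, against 11.5% of all genes, and 0 fell, against 23.8%. The 1 was S100A5 (0.84, adjusted p = 0.0479), which did not pass after scaling by summed FPKM (adjusted p = 0.0584).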

How the data were processed

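RNA of HaCaT cells was sequenced as paired reads, and per the labels the authors used TopHat, Cufflinks 2.1.1 and Cuffdiff. Which build, which annotation and which release of the other programs they ran is not given in the sources used here. FPKM per gene and per transcript were deposited by the authors for each library, rounded, in tables of 9 libraries for each dose. Their group values, log2 ratios, p-values and q-values, and the tables of 2 groups, were not used. Counts were not recovered from FPKM, so the depth is unknown and precision comes from the spread of 3 libraries a group. All 18179 gene identifiers occur in GENCODE 29, which gave coordinates.

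Genes averaging at least 1 FPKM (11987 at 160 μg/mL, 11903 at 320 μg/mL, 11952 over 15 libraries) were fitted on log2(FPKM + 0.1) with limma 3.58.1 in R 4.3.3 (eBayes with a trend, Benjamini and Hochberg over all tested genes, two-sided, threshold 0.05). Each dose was fitted with its 3 groups, and doses and their interaction with the particle were fitted over 15 libraries. The fit was tested on simulated data. All members were named. Of each list, up to 4 genes by the smallest p over the comparisons with control and any at 0 were to be named. More were named among the S100 partners, the antimicrobial and alarmin genes and the neighbours on chromosome 1, after their values were seen. List genes that reached 1 FPKM only through the group where they were highest are given with no test. The members and lists were chosen with earlier results of these data known. Alternatives were pseudocounts of 1 and 0.01, a minimum of 5 FPKM or none, a robust fit, scaling by median ratio, weights per library, the compared groups alone, 1 fit over all libraries and leaving out each library. Scaling by summed FPKM was added after seeing the data. No paired analysis was possible because the groups share no replicate numbers.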

Additional observations from a re-analysis of the deposited data

Results flagged for a closer look

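The difference between 320 and 160 μg/mL was not the same for the particles in 5 of the 9 tested members, against 39.7% of all genes, by the interaction of dose and particle in limma over 15 libraries. On the log2 scale, Li-doped Ag2S NPs minus Ag2S NPs, it was 2.66 for S100A8, 2.64 for S100A7, 1.72 for S100A9 and 1.59 for S100A4. For these 4 members all libraries at 320 μg/mL lay above all those at 160 μg/mL with Li-doped Ag2S NPs and below them with Ag2S NPs. The share of all genes of which this holds is not given. For S100A2 the interaction was -0.53 (adjusted p = 0.0474), with libraries of the doses overlapping for both particles. That call held in 4 of the 15 fits that left out a library, and was lost after scaling by median ratio (adjusted p = 0.105) and with no filter (adjusted p = 0.0783).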

How the results depend on the processing

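Counts of called members that moved by over 1.5 times were few. Scaling by median ratio gave 0 lower with Li-doped Ag2S NPs than with Ag2S NPs at 320 μg/mL and 2 lower with Ag2S NPs at 320 μg/mL than in control. No filter, 1 fit over all 15 libraries and the 2 compared groups alone also gave 0 lower in the first of these, and weights per library and scaling by summed FPKM gave 2. Weights per library gave 2 lower with Ag2S NPs at 160 μg/mL than in control, 2 higher with Ag2S NPs at 320 than at 160 μg/mL, and 2 lower with Li-doped Ag2S NPs at 320 than at 160 μg/mL. Scaling by summed FPKM gave 1 higher with Ag2S NPs and 2 lower with Li-doped Ag2S NPs in these dose comparisons. Leaving out 1 library gave 0 to 2 lower with Li-doped than with Ag2S NPs at 320 μg/mL, 1 to 2 lower with Ag2S NPs at 160 μg/mL than in control, and 0 to 2 lower with Li-doped Ag2S NPs at 320 than at 160 μg/mL. The cause was not tested, save that scaling by median ratio moves every difference from control upward.

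No called difference of a member changed sign. Uncalled ones did after scaling by median ratio, for S100A7 (0.0438) and S100A16 (0.0483) with Ag2S NPs at 160 μg/mL, S100A10 between the particles at 320 μg/mL (0.0036) and the interaction of S100A16 (5e-04). Leaving out 1 library did so with Ag2S NPs at 160 μg/mL for S100A7 (-0.313 to 0.0101) and S100A6 (-0.0457 to 0.188), between the particles at 160 μg/mL for S100A10 (-0.0117 to 0.119) and S100A14 (-0.101 to 0.033), at 320 μg/mL for S100A2 (-0.0087 to 0.231), between the doses of Ag2S NPs for S100A6 (-0.093 to 0.14) and S100A14 (-0.0069 to 0.127) and of Li-doped Ag2S NPs for S100A10 (-0.0091 to 0.122), and in the interaction of S100A16 (-0.138 to 0.0466). Since FPKM carry no depth, counting error, which weighs most on low genes such as S100A12 and S100P, was not computed.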
